A study of Mus musculus with 18 samples.

Results

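The uncoupling proteins Ucp1, Ucp2 and Ucp3 and 6 genes that mark or regulate heat production in fat (Cidea, Dio2, Elovl3, Ppargc1a, Ppargc1b and Prdm16) were examined in adipocytes and brown fat of mice on a high-fat diet (HFD). They were found by symbol among the 52093 symbols of the files, each symbol being represented by the transcript row with the highest mean level. All 9 genes had a row. The 18 libraries came from wild-type C57BL/6 males that had eaten the HFD over 12 weeks. The sources name the substrain differently: the strain label gives C57BL/6, the extraction protocol C57BL/6J and a note on these samples C57BL/6NTac. Each of 3 tissues was represented by 6 mice: mature adipocytes of inguinal white fat (iWAT), mature adipocytes of epididymal white fat (eWAT) and whole brown adipose tissue (BAT). The labels name no other treatment, and mice on regular chow were not analysed here. A treatment field of the labels gives regular chow for all samples, against the titles, the design text and the extraction protocol, which give the HFD. Age was recorded as 16 weeks, although a diet begun at 6 weeks of age, as is also recorded, would have made the mice older. The titles number the mice of either white depot 1, 2, 3, 4, 5 and 16, and those of BAT 1, 2, 5, 16, 17 and 18. White adipocytes were the floating layer after collagenase digestion, whereas BAT was frozen whole, so that every comparison with BAT also compares isolated cells with a tissue.

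Uncoupling proteins are carriers of the inner mitochondrial membrane. UCP1 lets protons return to the matrix without making ATP, so that fuel oxidation is released as heat, and it is the defining protein of brown and beige adipocytes. Cold and catecholamines raise cyclic AMP in these cells, which acts through protein kinase A, the coactivator PGC-1alpha and local production of thyroid hormone by type 2 deiodinase to increase transcription of Ucp1. UCP2 is found in many tissues and is abundant in macrophages and other immune cells, and UCP3 is best known from skeletal muscle and brown fat.

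Sequences before the transcription start are shown for the 3 uncoupling proteins and for Dio2 and Ppargc1a, because Ucp2 ran opposite to the other genes across tissues and because Dio2 and Ppargc1a stand upstream of Ucp1 in the cyclic AMP pathway. Of the 9 genes, 6 matched the RefSeq promoter table by symbol (build GRCm38.p6), and Cidea, Elovl3 and Ppargc1b were not matched. Each line gives the 250 bases before the start, 5′ to 3′ along the gene. Capitals mark matches on either strand to the cyclic AMP response element TGACGTCA, its half-site TGACG (or CGTCA, which overlaps the full element), the nuclear receptor half-site AGGTCA (or TGACCT) and the TATA box TATAAA (or TTTATA). The windows are chr8:83290098-83290347 for Ucp1, chr7:100493108-100493357 for Ucp2 and chr7:100472741-100472990 for Ucp3, all on the plus strand, and chr12:90739039-90739288 for Dio2 and chr5:51567726-51567975 for Ppargc1a, both on the minus strand.
Ucp1: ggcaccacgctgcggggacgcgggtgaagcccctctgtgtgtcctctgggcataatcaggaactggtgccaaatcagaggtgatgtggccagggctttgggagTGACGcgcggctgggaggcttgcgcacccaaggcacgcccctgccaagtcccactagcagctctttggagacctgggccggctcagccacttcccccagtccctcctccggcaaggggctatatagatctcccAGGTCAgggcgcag
Ucp2: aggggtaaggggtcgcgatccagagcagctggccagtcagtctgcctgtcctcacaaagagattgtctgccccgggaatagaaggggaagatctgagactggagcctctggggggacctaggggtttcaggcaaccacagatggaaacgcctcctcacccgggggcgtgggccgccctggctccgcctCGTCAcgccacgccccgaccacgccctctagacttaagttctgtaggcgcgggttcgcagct
Ucp3: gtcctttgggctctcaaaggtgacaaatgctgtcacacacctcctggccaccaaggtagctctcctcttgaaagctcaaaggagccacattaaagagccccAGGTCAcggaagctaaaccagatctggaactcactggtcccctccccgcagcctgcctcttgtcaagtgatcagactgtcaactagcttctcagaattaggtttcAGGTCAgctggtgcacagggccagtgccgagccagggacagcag
Dio2: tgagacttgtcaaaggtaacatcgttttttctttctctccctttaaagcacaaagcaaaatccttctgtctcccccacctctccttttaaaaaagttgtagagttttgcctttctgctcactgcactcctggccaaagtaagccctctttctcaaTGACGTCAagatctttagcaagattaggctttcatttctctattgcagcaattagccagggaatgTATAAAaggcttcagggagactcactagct
Ppargc1a: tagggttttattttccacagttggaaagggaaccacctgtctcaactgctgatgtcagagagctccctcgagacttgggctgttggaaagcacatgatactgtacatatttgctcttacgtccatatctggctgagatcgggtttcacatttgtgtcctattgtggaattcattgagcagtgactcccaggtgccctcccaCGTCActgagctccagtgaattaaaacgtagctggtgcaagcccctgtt

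The full cyclic AMP response element was found only in the Dio2 window, from 95 to 88 bases before the start, ahead of a TATA box from 30 to 25 bases before it. Among all 32851 windows of this length, 1.546% held the full element and 12.37% the TATA box. The half-site occurred in the windows of Ucp1, Ucp2 and Ppargc1a, and in that of Dio2 within the full element. It was found in 17.77% of all windows, a share that includes windows with the full element. Ucp1 held 1 nuclear receptor half-site and Ucp3 held 2, against 14.02% of all windows with any. Prdm16, whose window was also in the table, held none of these letters. GC content was 64.8% for Ucp1 and 63.6% for Ucp2, against 54.8% for Ucp3, 41.6% for Dio2 and a median of 52.4% over all windows. These matches are descriptions of letters and were not tied to binding. In the files, which use build mm9, Ucp1 lies at chr8:85814247-85822355 and has 6 exons. Ucp3 (chr7:107621499-107634941) and Ucp2 (chr7:107641846-107650682) are neighbours on the same strand with 6904 bases between them. The RefSeq starts fall 0, 21 and 1 bases after the row starts of Ucp1, Ucp2 and Ucp3 when the windows are found in mm9, at the row start of Ppargc1a and Prdm16, and 600 bases before that of Dio2.

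Before the genes are described, the libraries need a short account. Reads counted on transcript rows ranged from 24655056 to 42518483 per library, and the replicates of each tissue differed by more than sampling noise. The 10 most abundant rows took 43.6% to 54.3% of these reads in BAT, 14.1% to 20.5% in iWAT and 9.94% to 13.0% in eWAT adipocytes. All 6 adipocyte markers were above 1 RPKM (reads per kilobase of row and per total reads, a level per length) on average in each tissue, with sums of 11368 to 15929 RPKM in iWAT, 2542 to 7898 in eWAT and 5554 to 6803 in BAT. eWAT mice 1 and 3 had the lowest sums. Sums of 8 macrophage markers were 539 to 1047 RPKM in iWAT, 3096 to 4839 in eWAT and 33.7 to 64.9 in BAT, so the preparations labelled as adipocytes held RNA of these markers. The labelled brown fat carried the brown markers Cox8b at 1174 ± 261 RPKM and Cox7a1 at 360 ± 70.3 (mean ± SD, n = 6 mice here and throughout), and Zic1 at 0.843 ± 0.240. Lhx8, also listed as a brown marker, went against that label, with 2.20 ± 0.434 RPKM in iWAT adipocytes and 0.368 ± 0.0747 in BAT. In bulk RNA, fewer cells of a type and less RNA per cell cannot be told apart.

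Ucp1 separated the 3 tissues most widely. It ranged from 1465 to 2136 RPKM in the 6 BAT libraries (median 1888), with 58870 to 127049 reads per library. In iWAT adipocytes it ranged from 1.55 to 2.98 RPKM (median 2.098) on 79 to 148 reads. eWAT adipocytes had 0.123 to 0.370 RPKM (median 0.259) on 6 to 25 reads. The groups did not overlap, BAT being highest and eWAT lowest. In BAT, Ucp1 ranked 20th of all symbols by mean level, and mouse 5 had the lowest value and mouse 18 the highest. Fold changes, here and below, come from edgeR fits of each pair of tissues on counts scaled by the trimmed mean of M-values (TMM), with p-values adjusted over all genes tested. Ucp1 was 1256-fold higher in BAT than in iWAT adipocytes (log2 fold change -10.29 ± 0.22 SE, adjusted p = 2.17e-14) and 8.54-fold higher in iWAT than in eWAT adipocytes (3.09 ± 0.24, adjusted p = 3.97e-07). Against eWAT adipocytes, the BAT level was 10475-fold higher (log2 fold change -13.35 ± 0.25, adjusted p = 1.15e-14), the lowest log2 fold change of all 20076 genes tested. Counting error and variation between mice were not separated for the eWAT values.

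**Figure D1:**
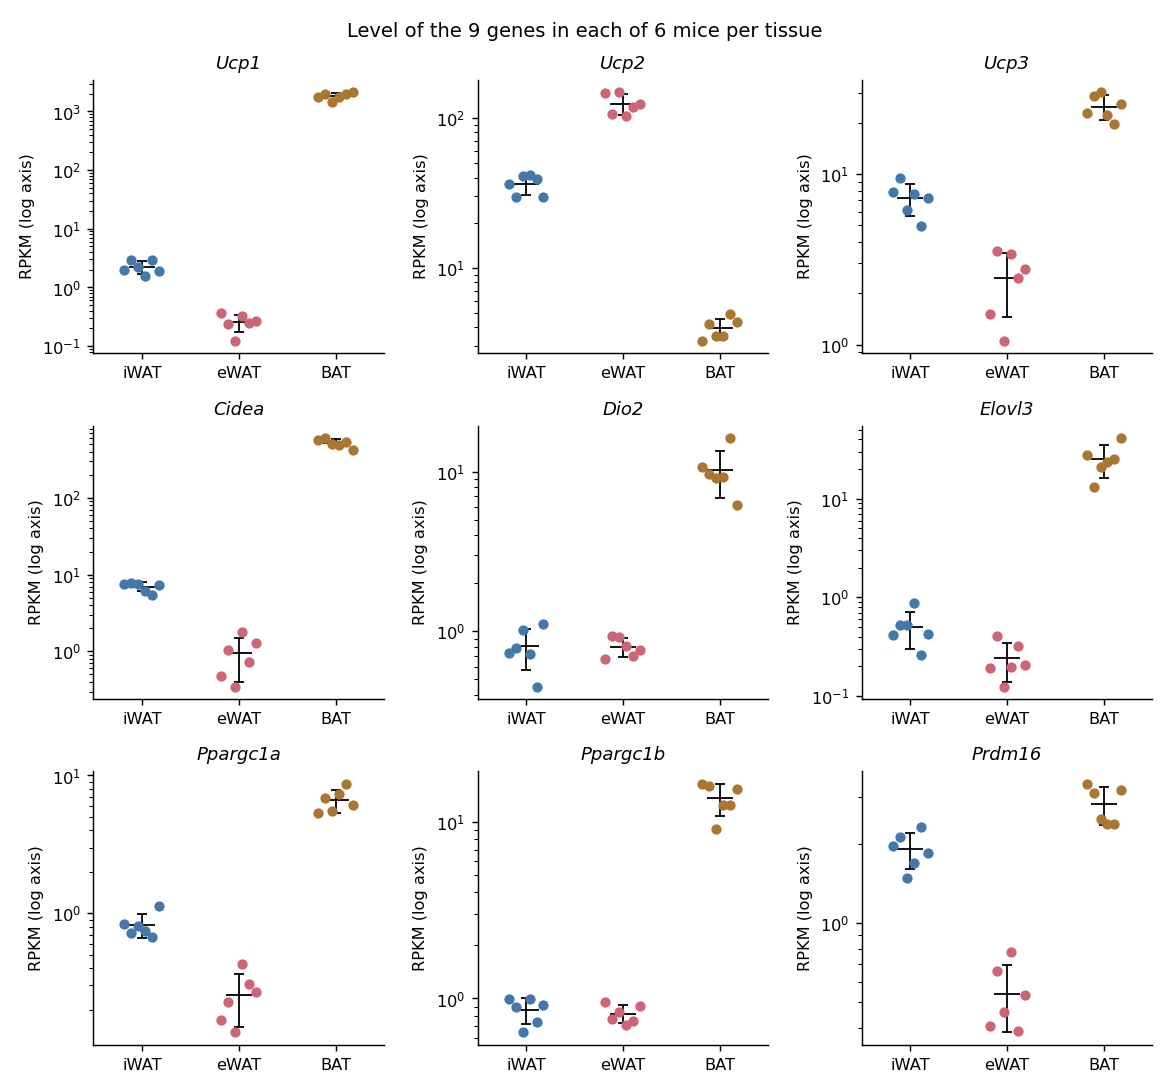
Level of each gene in RPKM on a log axis for the 6 mice of iWAT adipocytes, eWAT adipocytes and BAT. Points are mice and bars give the mean ± SD. BAT is the highest group for 8 genes and the lowest for Ucp2, and the iWAT and eWAT points overlap for Dio2, Elovl3 and Ppargc1b.

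Ucp2 ran the other way. Its level was 103.4 to 148.5 RPKM in eWAT adipocytes (median 121), 29.6 to 41.8 in iWAT adipocytes (median 37.7) and 3.25 to 4.89 in BAT (median 3.86), again with no overlap between groups. eWAT mice 1 and 3 had the highest values, 147 and 148 RPKM, and the other 4 eWAT mice lay at or below 124. Ucp2 was 3.42-fold higher in eWAT than in iWAT adipocytes (log2 fold change -1.77 ± 0.12, iWAT over eWAT, adjusted p = 2.16e-07), 6.02-fold higher in iWAT adipocytes than in BAT (2.59 ± 0.12, adjusted p = 2.07e-11) and 21.0-fold higher in eWAT adipocytes than in BAT (4.39 ± 0.14, adjusted p = 4.77e-13). Macrophage markers moved with it. All 8 were higher in eWAT than in iWAT adipocytes and all 8 higher in either white depot than in BAT, with median log2 fold changes of -2.26 (iWAT over eWAT), 3.96 (iWAT over BAT) and 6.27 (eWAT over BAT). Relative to Cd68, a lysosomal protein of macrophages, Ucp2 stood at 0.264 ± 0.0361 RPKM per RPKM in iWAT and 0.220 ± 0.00928 in eWAT adipocytes, with overlapping ranges, but at 1.32 ± 0.253 in BAT. The part of macrophage RNA in the Ucp2 levels was not tested. The Ucp2 row is 7144 bases long, against 3988 bases for the longest coding transcript in GENCODE vM1. With the shorter length the means would be 65.0 RPKM in iWAT, 223 in eWAT and 7.07 in BAT. The row also overlaps Dnajb13 on the opposite strand by 458 bases. Strand was not stated to be used in counting, so reads in that stretch are uncertain.

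Ucp3 followed the order of Ucp1 over a narrower range. BAT had 19.6 to 30.2 RPKM (median 24.3), iWAT adipocytes 4.99 to 9.52 (median 7.47) and eWAT adipocytes 1.05 to 3.53 (median 2.60). The groups did not overlap, and eWAT mice 3 and 1, with 1.05 and 1.51 RPKM, were lowest. Ucp3 was 5.23-fold higher in BAT than in iWAT adipocytes (log2 fold change -2.39 ± 0.16, adjusted p = 1.77e-09), 15.4-fold higher in BAT than in eWAT adipocytes (-3.94 ± 0.26, adjusted p = 1.15e-09) and 2.98-fold higher in iWAT than in eWAT adipocytes (1.58 ± 0.27, adjusted p = 0.000189). Markers of skeletal muscle, the other main site of Ucp3, moved with it between tissues. BAT exceeded iWAT and eWAT adipocytes in all 8, and the 5 tested between the white depots were higher in iWAT. The sum of 8 muscle markers in BAT ranged from 10.2 RPKM in mouse 2 to 125 in mouse 5, and it was 8.66 to 24.4 in iWAT and 2.17 to 7.25 in eWAT adipocytes. Mouse 5 also had the highest Ucp3 of the BAT libraries, 30.2 RPKM, and mouse 2 the next, 28.6 RPKM. The part of muscle RNA in the Ucp3 levels was not tested. The row of Ucp3 overlaps AK040808 on the opposite strand.

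The leading uncoupling protein differed by tissue. As shares of their summed RPKM within each library, Ucp2 made up 70.3% to 83.2% in iWAT adipocytes (mean 78.9% ± 4.98) and 96.5% to 99.2% in eWAT adipocytes (97.7% ± 1.09), whereas Ucp1 made up 97.8% to 98.8% in BAT (98.4% ± 0.360). Ucp3 held 16.1% ± 4.37 in iWAT adipocytes, more than Ucp1 with 5.00% ± 1.46, and 2.05% ± 1.04 in eWAT adipocytes against 0.210% ± 0.0720 for Ucp1. Ucp2 exceeded Ucp3 by 5.30 ± 1.74 times in iWAT and 65.4 ± 44.6 times in eWAT adipocytes, and its level was 0.164 ± 0.0456 of that of Ucp3 in BAT. No test was made of these shares. Shares of reads instead of RPKM, which weight long rows more, gave the same leading gene in each tissue.

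**Figure D2:**
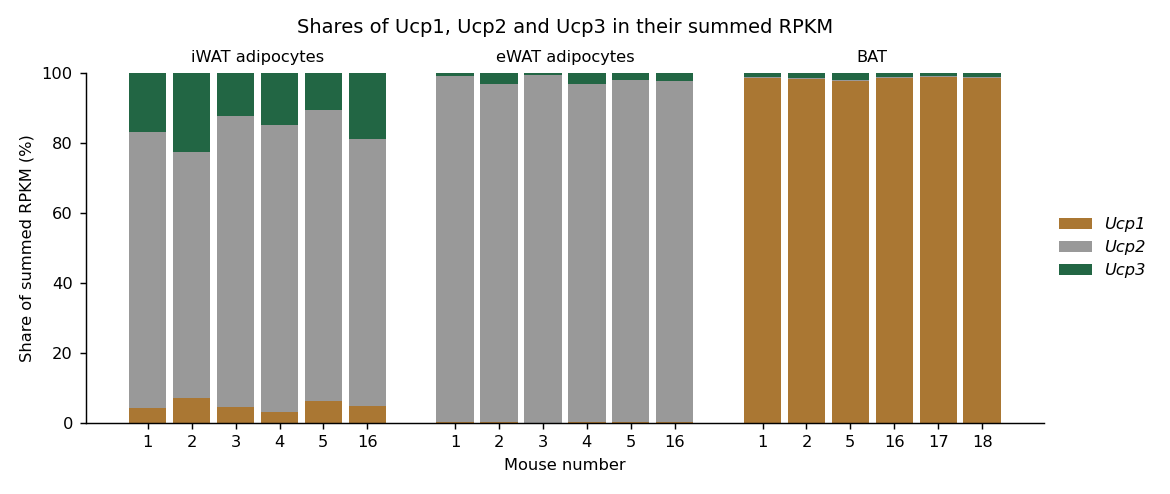
Share of Ucp1, Ucp2 and Ucp3 in their summed RPKM, in percent, for each mouse, one stacked bar per library. Ucp2 fills 70.3% to 83.2% of the iWAT bars and at least 96.5% of the eWAT bars, and Ucp1 fills at least 97.8% of the BAT bars.

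Cidea and Elovl3 are classical markers of brown fat. CIDEA is a lipid droplet protein and ELOVL3 elongates very long-chain fatty acids. Cidea was the second most abundant of the 9 genes in BAT, with 424 to 605 RPKM (median 517), and it had 5.49 to 7.80 RPKM (median 7.47) in iWAT and 0.347 to 1.81 (median 0.882) in eWAT adipocytes. These groups did not overlap, and eWAT mice 3 and 1 were again lowest. Cidea was 113-fold higher in BAT than in iWAT adipocytes (log2 fold change -6.82 ± 0.14, adjusted p = 2.17e-14), 837-fold higher in BAT than in eWAT adipocytes (-9.71 ± 0.33, adjusted p = 9.58e-13) and 7.52-fold higher in iWAT than in eWAT adipocytes (2.91 ± 0.30, adjusted p = 3.01e-06). Per RPKM of Cidea, Ucp1 stood at 0.330 ± 0.115 RPKM in iWAT and 0.346 ± 0.219 in eWAT adipocytes, and at 3.63 ± 0.749 in BAT, where the lowest mouse (2.93) exceeded every white sample. The row of Cidea overlaps B430212C06Rik on the opposite strand.

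Elovl3 had 13.0 to 41.2 RPKM (median 24.4) in BAT, 0.263 to 0.869 (median 0.474) in iWAT and 0.125 to 0.407 (median 0.203) in eWAT adipocytes. Both white ranges stood far below BAT and overlapped each other, on 15 to 51 reads in iWAT and 7 to 26 in eWAT. It was 76.6-fold higher in BAT than in iWAT adipocytes (log2 fold change -6.26 ± 0.31, adjusted p = 6.27e-11) and 156-fold higher in BAT than in eWAT adipocytes (-7.29 ± 0.32, adjusted p = 1.25e-11). Between the white depots it was 2.08-fold higher in iWAT (1.06 ± 0.32, adjusted p = 0.00981). That call was not kept in smaller sets of libraries, where the direction stayed the same and fewer mice leave less power. The call was lost within sequencing lane 1 alone (0.82, adjusted p = 0.178, 2 iWAT and 4 eWAT mice). It was also lost within lane 2 alone (1.42, adjusted p = 0.0502, 4 iWAT and 2 eWAT mice) and without eWAT mice 1 and 3 (0.81, adjusted p = 0.0552).

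Dio2, the type 2 deiodinase that converts thyroxine to the active hormone, had 6.15 to 16.2 RPKM in BAT (median 9.48), 0.450 to 1.10 (median 0.760) in iWAT and 0.673 to 0.935 (median 0.787) in eWAT adipocytes. The white ranges overlapped and BAT lay above both. Dio2 was 19.1-fold higher in BAT than in iWAT adipocytes (log2 fold change -4.26 ± 0.24, adjusted p = 2.75e-10) and 19.1-fold higher than in eWAT adipocytes (-4.26 ± 0.19, adjusted p = 1.5e-11). Between iWAT and eWAT adipocytes no difference passed the test (0.02 ± 0.19, adjusted p = 0.918), with a 95% confidence interval of the log2 fold change from -0.39 to 0.44.

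Ppargc1a and Ppargc1b encode the coactivators PGC-1alpha and PGC-1beta, which drive mitochondrial gene expression, and they differed from each other between the white depots. Ppargc1a had 5.30 to 8.71 RPKM in BAT (median 6.45), 0.678 to 1.13 (median 0.779) in iWAT and 0.137 to 0.431 (median 0.248) in eWAT adipocytes, without overlap. It was 3.24-fold higher in iWAT than in eWAT adipocytes (log2 fold change 1.70 ± 0.24, adjusted p = 4.61e-05), 12.3-fold higher in BAT than in iWAT (-3.62 ± 0.16, adjusted p = 1.96e-11) and 39.4-fold higher in BAT than in eWAT adipocytes (-5.30 ± 0.23, adjusted p = 1.26e-11). Ppargc1b had 9.15 to 16.5 RPKM in BAT (median 13.98), 0.641 to 0.992 (median 0.905) in iWAT and 0.708 to 0.960 (median 0.802) in eWAT adipocytes, the eWAT range lying within the iWAT range. It was 24.2-fold higher in BAT than in iWAT (-4.60 ± 0.15, adjusted p = 1.41e-12) and 25.0-fold higher in BAT than in eWAT adipocytes (-4.64 ± 0.14, adjusted p = 3.39e-13). Its difference between the white depots did not pass the test (0.08 ± 0.12, adjusted p = 0.581, 95% confidence interval -0.19 to 0.35). The ratio of Ppargc1a to Ppargc1b was 0.757 to 1.26 in iWAT, 0.164 to 0.609 in eWAT and 0.321 to 0.698 in BAT, so that iWAT lay above both other tissues in every mouse. The Ppargc1b row is 5643 bases long, against 3656 bases for the longest coding transcript in GENCODE vM1. With GENCODE lengths the Ppargc1b means would be 1.33 RPKM in iWAT, 1.27 in eWAT and 21.2 in BAT, against 0.844, 0.264 and 6.80 for Ppargc1a, which lowers the ratio by the same factor in every library. The Ppargc1b row shares 2706 bases of its span with AK045690 on the same strand, which had 9.07 RPKM in BAT and under 0.1 in white adipocytes, so the Ppargc1b count in BAT is uncertain.

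Prdm16, a transcription regulator of brown and beige adipocyte identity, showed the smallest step between BAT and iWAT. It had 2.36 to 3.37 RPKM in BAT (median 2.79), 1.48 to 2.30 (median 1.91) in iWAT and 0.391 to 0.776 (median 0.496) in eWAT adipocytes. The groups did not overlap, but the highest iWAT value, 2.30, lay just below the lowest BAT value, 2.36. Prdm16 was 2.26-fold higher in BAT than in iWAT adipocytes (log2 fold change -1.18 ± 0.11, adjusted p = 8.54e-08), 7.89-fold higher in BAT than in eWAT (-2.98 ± 0.16, adjusted p = 1.38e-10) and 3.55-fold higher in iWAT than in eWAT adipocytes (1.83 ± 0.17, adjusted p = 1.37e-06). The first of these depended on scaling: with libraries scaled only to their total count it was -0.32 (adjusted p = 0.0346). Its row overlaps 5930403L14Rik on the same strand, which had 6.92 RPKM in BAT, 2.64 in iWAT and 0.672 in eWAT adipocytes, so reads in that stretch are uncertain.

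In counts, 7 of the 9 genes passed the test between the white depots, of which 6 were higher in iWAT and 1, Ucp2, in eWAT. Of 19623 genes tested, 68.6% passed, 34.1% higher in iWAT and 34.5% higher in eWAT. All 9 genes passed between iWAT adipocytes and BAT, 8 of them higher in BAT, against 75.3% of all genes tested, with 37.2% higher in BAT and 38.1% higher in iWAT. Likewise all 9 passed between eWAT adipocytes and BAT, 8 higher in BAT, against 82.5% of all genes, with 41.4% higher in BAT and 41.1% higher in eWAT. Groups did not overlap for 6 of the 9 genes between the white depots and for all 9 in both comparisons with BAT, against 44.0%, 65.3% and 68.4% of all genes tested. The comparisons share samples and are not independent. With libraries scaled only to their total count, log2 fold changes over BAT moved up with the median of all genes (0.87 for iWAT and 0.89 for eWAT), that of Ucp1 to -9.43 and -12.45, and all 9 genes kept their direction and passed. BAT libraries carried sequencing lanes 3 and 4 and the white libraries lanes 1 and 2, so lane and tissue cannot be told apart in comparisons with BAT. In the white depots, the 6 genes other than Elovl3 that passed in the whole set also passed within lane 1 alone and within lane 2 alone.

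**Figure D3:**
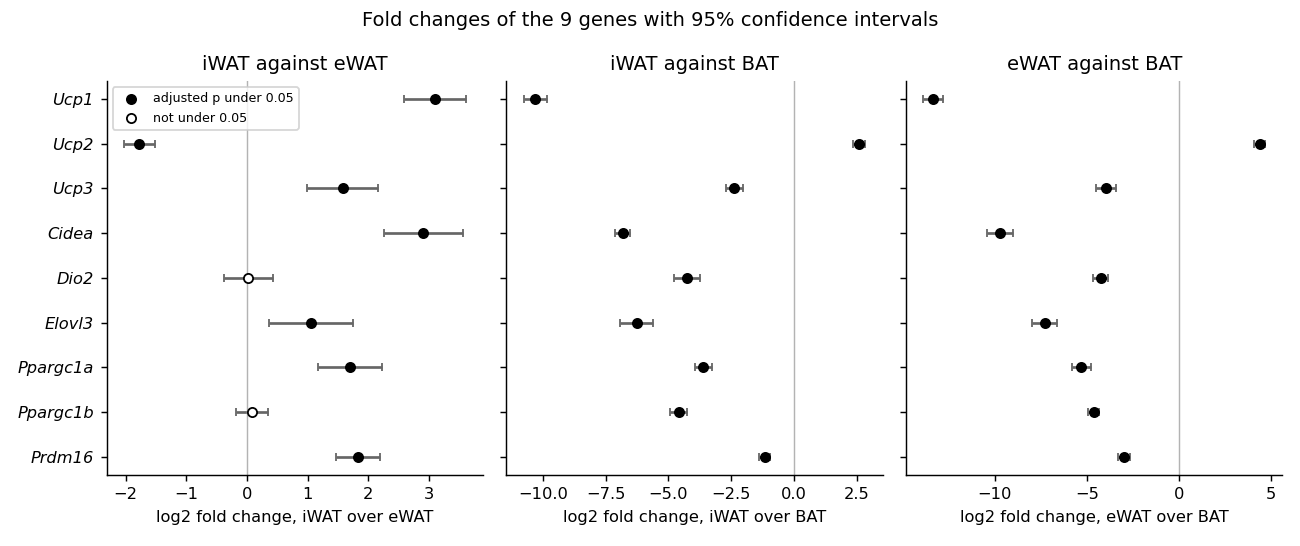
Log2 fold changes of the 9 genes from the edgeR fits for the 3 pairs of tissues, with 95% confidence intervals. Filled points have an adjusted p under 0.05. Ucp2 lies opposite to the other genes in all 3 panels, and the open points of Dio2 and Ppargc1b in the iWAT against eWAT panel lie at 0.02 and 0.08.

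Adipocyte markers also differed between the white preparations. All 6 were higher in iWAT, with a median log2 fold change of 1.43, so the genes were set against them in an analysis added after these values were seen. When libraries were scaled to the 6 markers, the median of all genes tested moved to -1.68. Values against 0 are then relative to the markers, and values against that median largely repeat the TMM scaling. Ucp1 (log2 fold change 1.56, adjusted p = 0.00075) and Cidea (1.498, adjusted p = 8.3e-05) stayed higher in iWAT. Ucp3 (0.13, adjusted p = 0.601), Ppargc1a (0.21, adjusted p = 0.448) and Prdm16 (0.26, adjusted p = 0.416) no longer passed the test against 0. All 3 lay above the shifted median of -1.68, but this scaling moves all genes by similar amounts. Their place above that median therefore repeats the TMM result and is no separate check. No test was made against that median. Elovl3 changed sign without passing (-0.43, adjusted p = 0.234). Relative to these markers Ucp2 (-3.55), Dio2 (-1.71, adjusted p = 0.000214) and Ppargc1b (-1.66, adjusted p = 0.000326) were lower in iWAT, Dio2 and Ppargc1b lying close to the shifted median. Levels were also taken per 100 RPKM of Plin1, the perilipin of adipocyte lipid droplets. Ucp3 stood at 2.03 ± 0.286 in iWAT and 2.15 ± 0.217 in eWAT adipocytes, and Ppargc1a at 0.232 ± 0.0309 and 0.233 ± 0.0464, each with overlapping ranges. Cidea stood at 1.98 ± 0.180 and 0.791 ± 0.169 without overlap. Ucp1 stood at 0.654 ± 0.231 in iWAT and 0.264 ± 0.166 in eWAT adipocytes, with overlapping ranges (0.448 to 1.07 and 0.157 to 0.599). Elovl3 was at 0.143 ± 0.0635 in iWAT and 0.227 ± 0.0768 in eWAT adipocytes, also overlapping. In BAT the corresponding values were 950 ± 104 for Ucp1, 12.8 ± 2.37 for Ucp3, 3.395 ± 0.666 for Ppargc1a and 266 ± 29.9 for Cidea.

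**Figure D4:**
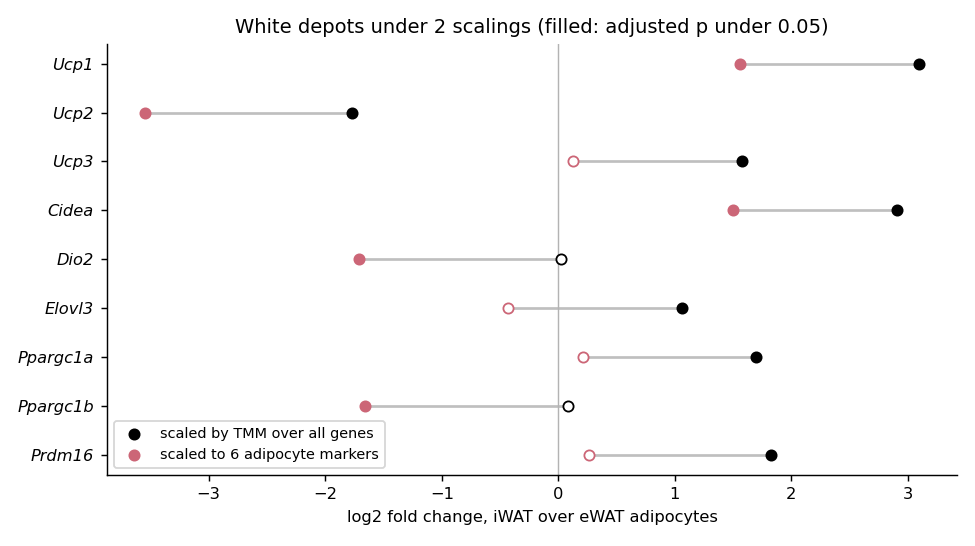
Log2 fold changes of the 9 genes, iWAT over eWAT adipocytes, with libraries scaled by TMM over all genes (black) or to 6 adipocyte markers (red). Filled points have an adjusted p under 0.05. All 9 values move to the left, and Ucp1 (1.56) and Cidea (1.498) are the filled red points that stay above 0.

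Within each tissue the order of the genes differed. In BAT it ran Ucp1, Cidea, Elovl3, Ucp3, Ppargc1b, Dio2, Ppargc1a, Ucp2 and Prdm16 by mean RPKM, a level per length. The ranges of Elovl3 and Ucp3, Ppargc1b and Dio2, Dio2 and Ppargc1a, and Ucp2 and Prdm16 overlapped between mice. Within single libraries Dio2 was above Ppargc1a in 6 of 6 mice, Ppargc1b above Dio2 and Ucp2 above Prdm16 in 5 each, and Elovl3 above Ucp3 in 4. With GENCODE lengths Ucp3 (31.8 RPKM) would stand above Elovl3 (25.4) and Ucp2 (7.07) above Ppargc1a (6.80) in BAT. In eWAT adipocytes Ppargc1b (1.27) would stand above Cidea (0.948) and Ppargc1a (0.264) above Ucp1 (0.261), and the order in iWAT would stay as it is. In iWAT adipocytes Ucp2 led, followed by Ucp3 and Cidea, which overlapped, then Ucp1 and Prdm16, which overlapped, and then Ppargc1b, Ppargc1a, Dio2 and Elovl3, each overlapping the next. In eWAT adipocytes Ucp2 led by mean level, and Ucp3, Cidea, Ppargc1b, Dio2 and Prdm16 followed with overlapping neighbours. Ucp1, Ppargc1a and Elovl3 formed the lowest group there, at 0.261 ± 0.0844, 0.257 ± 0.106 and 0.242 ± 0.103 RPKM.

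The genes also differed in how much they varied between mice. In BAT the coefficient of variation was 12.8% for Ucp1 and 12.3% for Cidea, below the median of 14.6% over symbols with a mean of at least 1 RPKM, and 32.7% for Dio2 and 36.8% for Elovl3. The extreme mice were not the same for each gene. By RPKM, BAT mouse 17 had the most Dio2 (16.2) and Ppargc1a (8.71). With TMM-scaled RPKM, Ppargc1a was highest in BAT mouse 16 (11.5, against 11.2 in mouse 17). BAT mouse 18 had the least Dio2 (6.15 RPKM) and Cidea (424) but the most Elovl3 (41.2) and Ucp1 (2136). In eWAT adipocytes the coefficient was 57.8% for Cidea, 41.4% for Ppargc1a and 40.7% for Ucp3. It was 13.8% for Dio2 and 12.0% for Ppargc1b, against a median of 11.9%. Of these genes all but Ucp3 had means below 1 RPKM in eWAT, outside the set behind that median. Counting error was not separated from variation between mice for them. Mouse 3 of eWAT had the lowest Ucp1, Ucp3, Cidea, Elovl3 and Ppargc1a and the lowest adipocyte marker sum. In iWAT adipocytes the coefficient ranged from 13.7% for Cidea to 40.4% for Elovl3. Mouse 5 there had the lowest Ucp3, Cidea, Dio2, Elovl3 and Ppargc1a and the lowest adipocyte marker sum. By RPKM it also had the highest Ucp1 and Prdm16, but its Ucp1 (2.98) was close to that of mouse 2 (2.96). With TMM-scaled RPKM mouse 2 was above mouse 5 for both, at 2.70 against 2.46 for Ucp1 and 1.92 against 1.90 for Prdm16. iWAT mouse 5 also had the highest sums of endothelial markers (302 RPKM against a median of 168) and progenitor and fibroblast markers (166 against 90.4). Its sums of B cell markers (2.17 against 1.026) and T cell markers (0.518 against 0.220) were the highest as well. Between the white depots, all 5 endothelial markers were higher in iWAT (median log2 fold change 1.71), as were the 3 tested of 4 Schwann cell markers (median 3.63). Of 6 progenitor and fibroblast markers 1 was higher in iWAT, and of the 3 tested B cell markers 2 were. The part of these cell types in the levels of Ucp1 and Prdm16 was not tested.

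In all, 10 relations across the 6 mice of a tissue were tested by exact permutation, two-sided, on log2(RPKM + 0.1), and p-values were adjusted over the 10 relations. Ucp2 was related to the mean of the 8 macrophage markers in eWAT adipocytes (Pearson r = 0.965, exact p = 0.00139, the smallest that 720 permutations can give for r, adjusted p = 0.0139, Spearman rho = 1, exact p = 0.00278, adjusted p = 0.0278). eWAT mice 1 and 3 stood apart with the highest marker sums, 4775 and 4839 RPKM, against 3096 to 3390 in the other mice. Without the 2 mice farthest from the median of the markers, r was 0.990. After TMM scaling of the RPKM values the adjusted permutation p of r was 0.0556. In iWAT adipocytes the relation had r = 0.833 (exact p = 0.0472, adjusted p = 0.157, rho = 0.771 with exact p = 0.103) and in BAT r = 0.734 (exact p = 0.0931, adjusted p = 0.233, rho = 0.657 with exact p = 0.175), neither passing after adjustment. Lanes held 4 and 2 mice of each tissue, too few for a value within a lane. Ucp3 and the mean of the muscle markers had r = 0.910 in eWAT adipocytes (exact p = 0.0167, adjusted p = 0.0833, rho = 0.6 with exact p = 0.242), which fell to 0.18 without the 2 farthest mice and so rests on those samples. In iWAT the value was 0.492 (exact p = 0.333, rho = 0.200 with exact p = 0.714) and in BAT -0.099 (exact p = 0.835, rho = 0.257 with exact p = 0.658).

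**Figure D5:**
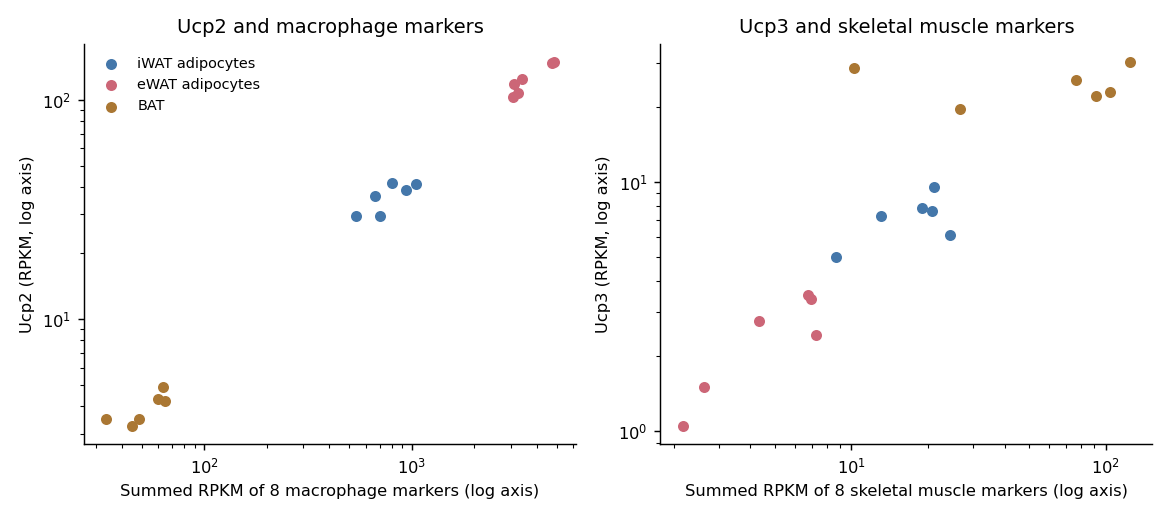
Levels of Ucp2 against the summed RPKM of 8 macrophage markers, and of Ucp3 against the summed RPKM of 8 skeletal muscle markers, on log axes, with 1 point per library. The tissues form separate clusters, eWAT adipocytes being highest for Ucp2 and its markers, and in BAT mice 2 and 5 have 28.6 and 30.2 RPKM of Ucp3 at muscle sums of 10.2 and 125 RPKM.

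No relation of Ucp1 with Cidea, Elovl3, Dio2 or Ppargc1a passed the test across the iWAT adipocytes of 6 mice. Pearson's r of Ucp1 was -0.056 with Cidea (exact p = 0.949, rho = 0.086 with exact p = 0.919), -0.649 with Elovl3 (exact p = 0.164, rho = -0.486 with exact p = 0.356), -0.450 with Dio2 (exact p = 0.394, rho = -0.257 with exact p = 0.658) and -0.501 with Ppargc1a (exact p = 0.326, rho = -0.657 with exact p = 0.175). The adjusted p-values of r were 0.328 to 0.949 by permutation, and 6 mice leave wide error on each value. Without the 2 mice farthest on the other gene, r was 0.813 with Cidea, 0.779 with Elovl3, 0.306 with Dio2 and -0.307 with Ppargc1a. Only the relation with Ppargc1a kept its direction, and it did not pass. Each gene was also set against the mean of the 6 adipocyte markers in each white depot, 18 relations added after the marker values were seen. In eWAT adipocytes Ucp3 had r = 0.980 (exact p = 0.00417, adjusted p = 0.0375, rho = 0.943 with exact p = 0.0167) and Ucp2 r = -0.963 (exact p = 0.00278, adjusted p = 0.0375, rho = -0.943 with exact p = 0.0167). Without the 2 farthest mice these were 0.745 and -0.968. None of the other 16 relations passed an adjusted permutation p of 0.05 for r, and the adjusted p-values of rho were at least 0.15 for all 18.

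The genes most like each uncoupling protein were sought by Pearson's r of log2(RPKM + 0.1) over the 18 libraries, among 15539 other symbols with a mean of at least 1 RPKM in some tissue. As the libraries fall into 3 tissues, r mainly reflects tissue means and is given without a test. Ucp1 was most like Cpt1b (0.998), the muscle-type carnitine palmitoyltransferase that admits fatty acids to mitochondria, Slc25a48 (0.997) and Ntrk3 (0.995), and 37 symbols exceeded 0.99. Ucp2 was most like Slc11a1, a metal transporter of phagocyte lysosomes, and the Fc receptor genes Fcer1g and Fcgr3 (each 0.998), among 633 symbols above 0.99. Cidea had the lowest r with Ucp2 of all symbols compared (-0.994). Ucp3 was most like Nudt12 (0.991), and Cpt2 (0.988) was also among its nearest. Nudt12 was its only match above 0.99. With tissue means subtracted, Ucp2 was again most like Slc11a1 (0.950), followed by Adam8 (0.938) and Got1 (0.919). Ucp3 was then most like Fsd2, Fam83a and Crtac1 (0.941, 0.940 and 0.937), and Ucp1 most like Nol10 (0.787), AK037309 (0.778) and 4933433G19Rik (0.707). Of the 9 genes, Cidea was nearest to Ucp3 on this scale (0.808), whereas Ucp1 reached at most 0.351, with Prdm16.

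Genes that carry the signal to these 9 were examined as lists, by counts and medians. Counts of this and the following lists are to be set beside shares of all genes tested. Between the white depots 34.1% were higher in iWAT and 34.5% in eWAT. Against BAT, 38.1% were higher in iWAT and 37.2% in BAT, and 41.1% were higher in eWAT and 41.4% in BAT. Of 23 genes of thermogenic signalling, 21 were tested: 12 were higher in iWAT and 4 in eWAT adipocytes (median log2 fold change 0.80, against 0.0014 over all genes), 12 were higher in BAT and 5 in iWAT (median -0.53 against 0.014), and 13 were higher in BAT and 7 in eWAT (median -1.20 against -0.017). Adrb3, the main beta-adrenergic receptor of rodent fat, had 80.8 ± 22.9 RPKM in BAT, 13.0 ± 3.97 in iWAT and 7.53 ± 4.82 in eWAT adipocytes, and Adrb1 8.20 ± 2.14, 0.989 ± 0.209 and 0.284 ± 0.136. Tshr, the thyrotropin receptor, ran the other way with 29.2 ± 6.47 RPKM in iWAT, 12.0 ± 5.32 in eWAT and 2.096 ± 0.538 in BAT. Between the white depots, Klb (coreceptor of FGF21) was 3.18-fold higher in iWAT, and Adcy3 and Mapk14 were 2.15-fold and 1.56-fold higher in eWAT.

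Of 26 transcription factors and cofactors of the pathway, 25 were tested between the white depots. Of these, 15 were higher in iWAT and 6 in eWAT, against 34.1% and 34.5% of all genes. Their median log2 fold change was 0.35, against 0.0014 over all genes. Against BAT, 10 of 25 were higher in iWAT and 12 in BAT, and 11 of 26 were higher in eWAT and 12 in BAT (medians -0.064 and -0.16). Of all genes, 38.1% were higher in iWAT and 37.2% in BAT, and 41.1% were higher in eWAT and 41.4% in BAT. Ppara, a nuclear receptor for fatty acids, had 42.7 ± 8.82 RPKM in BAT, 1.14 ± 0.177 in iWAT and 0.399 ± 0.168 in eWAT adipocytes. Nrip1, a corepressor of Ucp1, was lower in BAT, with 0.926 ± 0.124 RPKM against 9.50 ± 2.03 in iWAT and 6.38 ± 2.07 in eWAT. Cebpd was 8.76-fold higher in iWAT adipocytes and Irf4 4.45-fold higher in eWAT adipocytes than in BAT. Hmgn3 was 2.80-fold higher in iWAT, and Zfp516 (1.95-fold) and Foxc2 (3.51-fold) in eWAT adipocytes, Foxc2 at under 1 RPKM. Esrrb was higher in BAT at 0.377 ± 0.0856 RPKM, with at most 5 reads in any iWAT and 1 in any eWAT library.

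Of 23 identity genes of brown, beige and white fat, 15 were tested between the white depots. Of these, 13 were higher in iWAT and 2, Tmem26 and Epsti1, in eWAT (median log2 fold change 1.35), against 34.1% and 34.5% of all genes. The 6 adipocyte markers had a median of 1.43 between the same preparations, and Lep is in both lists. The list pools genes of different fat types, so its counts and medians do not describe 1 identity. Against BAT, 18 were tested: 9 were higher in BAT and 9 in iWAT, and 11 were higher in BAT and 7 in eWAT (medians -0.036 and -3.14). Shox2 and Lhx8 were 83.7-fold and 27.2-fold higher in iWAT than in eWAT adipocytes. Slc27a2 and Fabp3 had 12.4 ± 4.07 and 190 ± 49.9 RPKM in BAT, while Slc27a2 had at most 3 reads in any white library. Hoxc9 and Tmem26 were near absent from BAT, with at most 1 and 3 reads per library, and Hoxc9 had 3.48 ± 0.509 RPKM in iWAT adipocytes. Slc7a10, a white adipocyte amino acid transporter, was 24.3-fold higher in iWAT adipocytes than in BAT.

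Relatives of the 9 genes did not share 1 pattern, and their counts are to be set beside the same shares of all genes. Of 7 carriers related to the uncoupling proteins, 2 were higher in iWAT and 1 in eWAT (median log2 fold change 0.084), and in either comparison with BAT 4 were higher in BAT and 2 in white adipocytes (medians -0.53 for iWAT and -0.58 for eWAT). Slc25a10, the dicarboxylate carrier, had 60.2 ± 9.72 RPKM in iWAT, 24.7 ± 8.62 in eWAT and 2.18 ± 0.822 in BAT, and Slc25a30 was also lower in BAT (3.21-fold against iWAT and 3.55-fold against eWAT). Slc25a27, Slc25a11 and Slc25a4 were higher in BAT, by 7.31-fold and 2.43-fold for the first pair against iWAT and by 3.05-fold for Slc25a4 against eWAT. Of 8 CIDE and ELOVL genes, 6, 6 and 7 were tested in the 3 comparisons, with 1 higher in iWAT and 2 in eWAT, 3 higher in BAT and 2 in iWAT, and 3 higher in BAT and 2 in eWAT (medians -0.21, -1.87 and 0.17). Elovl6, like Elovl3, was highest in BAT, with 76.9 ± 27.6 RPKM in BAT, 3.21 ± 0.376 in iWAT and 2.81 ± 0.940 in eWAT adipocytes, as was Elovl4 at 0.458 ± 0.149 RPKM in BAT. Cidec, also 1 of the adipocyte markers, did not follow Cidea, with 992 ± 162 RPKM in iWAT, 447 ± 191 in eWAT and 249 ± 36.5 in BAT. Elovl1 was lowest in BAT, at 1.94 ± 0.334 RPKM against 9.50 ± 0.662 and 16.97 ± 2.1, and Elovl7 was below 0.2 RPKM in each tissue. Of 10 genes of the PRDM family, 8 were tested, with 2 higher in iWAT and 1 in eWAT, 3 higher in iWAT and 1 in BAT, and 3 higher in eWAT and 2 in BAT (medians -0.045, 0.14 and -0.0076). Mecom, like Prdm16, was higher in iWAT than in eWAT adipocytes (3.79-fold), and Prdm1 was opposite to Prdm16, with 9.17 ± 2.36 RPKM in eWAT, 2.19 ± 0.869 in iWAT and 0.144 ± 0.0566 in BAT. By mean level Irf4 and Epsti1, named above, had the same order of tissues as Prdm1. Macrophage marker sums also had that order, and the part of macrophage RNA in the levels of these genes was not tested. Prdm2 was 1.60-fold and 1.63-fold lower in BAT than in iWAT and eWAT adipocytes, and Prdm15 was 1.74-fold and 1.63-fold higher. The RPKM levels of Prdm15 were close, at 0.389 in BAT, 0.342 in iWAT and 0.358 in eWAT adipocytes. Its log2 fold changes over BAT (-0.80 and -0.71) were smaller in size than the shift of all genes without TMM scaling (0.87 and 0.89). The direction of Prdm15 may therefore depend on scaling, which was not tested.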

How the data were processed

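RNA of RIN above 8 was made into NEBNext Ultra libraries, a kit taken here as not marking strand, and sequenced on an Illumina HiSeq instrument. Per the labels, reads were processed with cutadapt 1.16 and HISAT2 2.1.0 and mapped to mm9. The counting program is not given in the sources used here. The authors deposited, for each transcript row, a whole-number read count and the RPKM computed from it, 1 file per sample.

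Where a symbol had several rows (1220 symbols), the most abundant by mean RPKM stood for it. Counts were tested with edgeR 4.0.16 (glmQLFit, glmQLFTest, TMM, two-sided) in R 4.3.3 on the 12 libraries of each pair of tissues, after a filter at a mean count of 10, with Benjamini-Hochberg adjustment and a threshold of 0.05. The code was tested on simulated data. DESeq2 1.42.0 and limma 3.58.1 on log2(RPKM + 0.1) or log2(RPKM + 1), for genes with a mean of at least 0.1 RPKM, were alternatives, besides no scaling, no count filter, summed rows, a fit of all 18 libraries, lane as a covariate and the mouse number as a block. Correlations, shares and figures used Python 3.11.15, numpy 2.4.6, pandas 2.3.3 and matplotlib 3.10.9. Replicates are mice as numbered in the titles, and read counts cover counting error only.

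The 9 genes, the gene lists and the tests were chosen with earlier results of these data known. Genes named from a list are, per direction and comparison, the 2 that passed with the largest fold change, and those like Ucp1, Ucp2 and Ucp3 are the 3 with the highest r; some of the genes these rules name are not reported here. Scaling to adipocyte markers, fits within a lane, fits without eWAT mice 1 and 3, GENCODE lengths and the relations with adipocyte markers were added after the data were seen.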

Additional observations from a re-analysis of the deposited data

Results flagged for a closer look

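Of 27 groups of 6 mice (9 genes in 3 tissues), 1 held a value far from the rest by Dixon's test, where chance would give 1.35. Ppargc1a in iWAT adipocytes of mouse 16 was 1.13 RPKM on 234 reads, and the other 5 mice lay between 0.678 and 0.840 RPKM. Dio2 was also highest in that mouse among the iWAT libraries (1.10 RPKM), as was the adipocyte marker sum (15929 RPKM). Why this library stands apart was not tested.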

How the results depend on the processing

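In the 3 comparisons of tissues, DESeq2, no scaling, limma with either pseudocount, no filter, summed rows and 1 fit of all 18 libraries left every call of the 9 genes as it was, 7 between the white depots and 9 in each comparison with BAT. Lane as a covariate, run only between the white depots, also left the 7 calls there. Only log2 fold changes of genes that did not pass between the white depots changed sign: Dio2 with no scaling (-0.0662) and in limma (-0.0289 with a pseudocount of 0.1, -0.0051 with 1), and Ppargc1b with no scaling (-0.0055). Of the alternatives added later, scaling to adipocyte markers moved the median of all genes to -1.68 and with it Dio2 (-1.71), Ppargc1b (-1.66) and Elovl3 (-0.43) below 0. Dio2 and Ppargc1b lay close to that median and Elovl3 above it, so these signs are not changes relative to other genes. In lane 2 alone Ppargc1b was at -0.0315 and did not pass. Without scaling, the median over all tested genes moved to 0.87 (iWAT over BAT) and 0.89 (eWAT over BAT), and all 9 genes kept their direction and call.

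Samples with the same mouse number did not deviate together on average. Mean correlations of their deviations were -0.0021, -0.020 and -0.016 in the 3 comparisons, with at most 1 pair over 0.1 in each. Between the white depots these correlations ranged from -0.30 to 0.53, and those of samples with other numbers from -0.50 to 0.52. Such values cannot show whether samples came from the same mouse, and the numbers were not used for pairing in the main fits. When mouse numbers entered as a replicate block, 7, 9 and 9 genes passed, as before, and Dio2 between the white depots changed sign without passing (-0.0186).

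Shares of counts in place of RPKM moved all 9 shares by more than 1 SD: Ucp1, Ucp2 and Ucp3 became 1.33%, 90.5% and 8.15% in iWAT, 0.0490%, 99.04% and 0.912% in eWAT, and 96.6%, 0.893% and 2.51% in BAT. With TMM-rescaled RPKM, the correlation of Ucp2 with macrophage markers in eWAT was 0.959 but no longer passed (permutation, adjusted p = 0.0556), and those of Ucp1 with Cidea in iWAT (0.029) and of Ucp3 with muscle markers in BAT (0.196) changed sign. Depth limits Ucp1 and Elovl3 in eWAT adipocytes most, with 6 to 25 and 7 to 26 reads per library.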
